A study of Mus musculus with 2 samples.

Results

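The genes described here are 45 mouse genes of mitosis and the spindle, grouped in 9 roles that run from the kinases of mitotic entry to the condensins that fold chromosomes. The rule lists them by name and uses no measured value, and all 45 of 45 were found, through 63 probes, among the 32448 genes of the array. Their RNA was measured in bone marrow-derived macrophages (BMDMs), which are grown from mouse marrow with the growth factor M-CSF, either untreated or treated with IL-4 for 18 h. By the labels the mice were male, and by the study's methods they were 8-week-old Crif1 f/f animals on a C57BL/6 background, whose floxed Crif1 alleles were carried by both conditions. No Cre driver is named for these arrays, and neither the dose of IL-4 nor the number of mice behind each RNA is given for them in the sources used here. Each condition was hybridised to 1 single-colour Agilent array, so no difference below has a replicate check and no p-value is given. In such bulk RNA, fewer dividing cells and less RNA per dividing cell cannot be told apart.

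Cells that divide make most mitotic transcripts in G2 and M phase, and cells at rest keep them low, so the level of these transcripts in a culture tracks how much of it is cycling. Many mitotic genes are repressed at rest by the DREAM complex, in which pocket proteins and E2F factors sit on a core called MuvB. They are switched on in G2 when MuvB joins B-Myb, encoded by Mybl2, and FOXM1. M-CSF drives macrophage precursors to divide, and IL-4 is the cytokine that turns macrophages toward the M2-like state and lets some tissue macrophages proliferate.

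The promoters of these genes are known for 2 short elements, the CHR (TTTGAA or TTCGAA), which MuvB binds, and the CCAAT box, which NF-Y binds. Both were searched as letters on both strands in the 250 bases before each RefSeq transcript start, where 36 of the 45 genes had a promoter entry. A CHR word was found for 36.1% of these genes and for 19.6% of all 27025 genes with a promoter entry. CCAAT was found for 72.2% of them and for 37.5% of all genes, and both elements for 33.3%, which is 12 genes, against 7.0% of all genes. Of 32 DNA replication and S phase genes with an entry, 21.9% held a CHR word, 62.5% CCAAT and 18.8% both. A match in letters is a description of the promoter and does not show binding in these cells. The 3 windows printed here belong to the genes with both elements whose signal differed most between the arrays after the 75th percentile of each was subtracted, and other scalings would give other genes. They are Kif11 at chr19:37376132-37376381 on the plus strand, Ncapd2 at chr6:125191587-125191836 on the minus strand and Bub1b at chr2:118597961-118598210 on the plus strand, in RefSeq's GRCm38.p6, and each ends just before the annotated transcript start. They are written 5′ to 3′ along the gene, and the capitals mark the CHR word and the CCAAT box. The letters TTCAAA in Kif11 are the first CHR word read on the opposite strand, and ATTGG in all 3 windows is the CCAAT box read on the opposite strand.
Kif11: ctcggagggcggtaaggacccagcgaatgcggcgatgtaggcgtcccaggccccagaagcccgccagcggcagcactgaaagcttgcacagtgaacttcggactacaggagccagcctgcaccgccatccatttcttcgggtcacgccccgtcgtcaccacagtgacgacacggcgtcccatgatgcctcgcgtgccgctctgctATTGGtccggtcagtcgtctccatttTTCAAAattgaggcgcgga
Ncapd2: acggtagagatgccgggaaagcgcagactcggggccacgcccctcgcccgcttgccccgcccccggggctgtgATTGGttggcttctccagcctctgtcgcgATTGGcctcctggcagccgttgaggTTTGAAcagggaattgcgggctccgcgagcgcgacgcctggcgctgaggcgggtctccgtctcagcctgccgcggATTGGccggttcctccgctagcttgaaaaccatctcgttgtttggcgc
Bub1b: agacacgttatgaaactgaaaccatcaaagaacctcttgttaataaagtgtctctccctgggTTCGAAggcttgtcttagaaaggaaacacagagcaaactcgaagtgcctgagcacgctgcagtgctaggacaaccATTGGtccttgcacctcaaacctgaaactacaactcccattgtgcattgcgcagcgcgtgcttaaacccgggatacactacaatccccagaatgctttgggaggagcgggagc
The CHR word lay 19 bases before the start in Kif11, 123 bases in Ncapd2 and 188 bases in Bub1b, counted from the word's first letter as printed. The Ncapd2 window held 3 CCAAT boxes, and the others held 1 each.

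No measured mitosis gene, read from its brightest probe, differed by 1.5-fold or more between untreated and IL-4-treated BMDMs. Of the 45 genes, 43 were well above background on both arrays by the scanner software's flag, and among them 0 passed 1.5-fold, against 17.1% of the 19703 genes on the array for which a fold could be given and 10.3% of the 17242 genes that passed the flag on each array. At 2-fold or more the count was 0 as well, against 7.34% of genes. Differences are given as log2 signal of the IL-4 array minus the untreated array, after the 75th percentile of each array (9.84 untreated and 9.94 with IL-4) was subtracted. The intensities beside them are the background-subtracted signals before this step, so a gene can have the higher intensity with IL-4 and still a difference below 0. On this scale the 43 genes had a median difference of -0.11, against -0.01 for all genes on both arrays, and ran from -0.47 to 0.12, with 34 below 0 (79.1%, against 52.6% of all genes) and 9 above, although with median scaling only 7 were below 0 and with spike-in scaling only 4. Median scaling adds 0.21 and spike-in scaling 0.29 to every difference given below. The middle 50% of the mitosis genes spanned 0.19 log2 units, and the same share of all genes spanned 0.34.

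**Figure D1:**
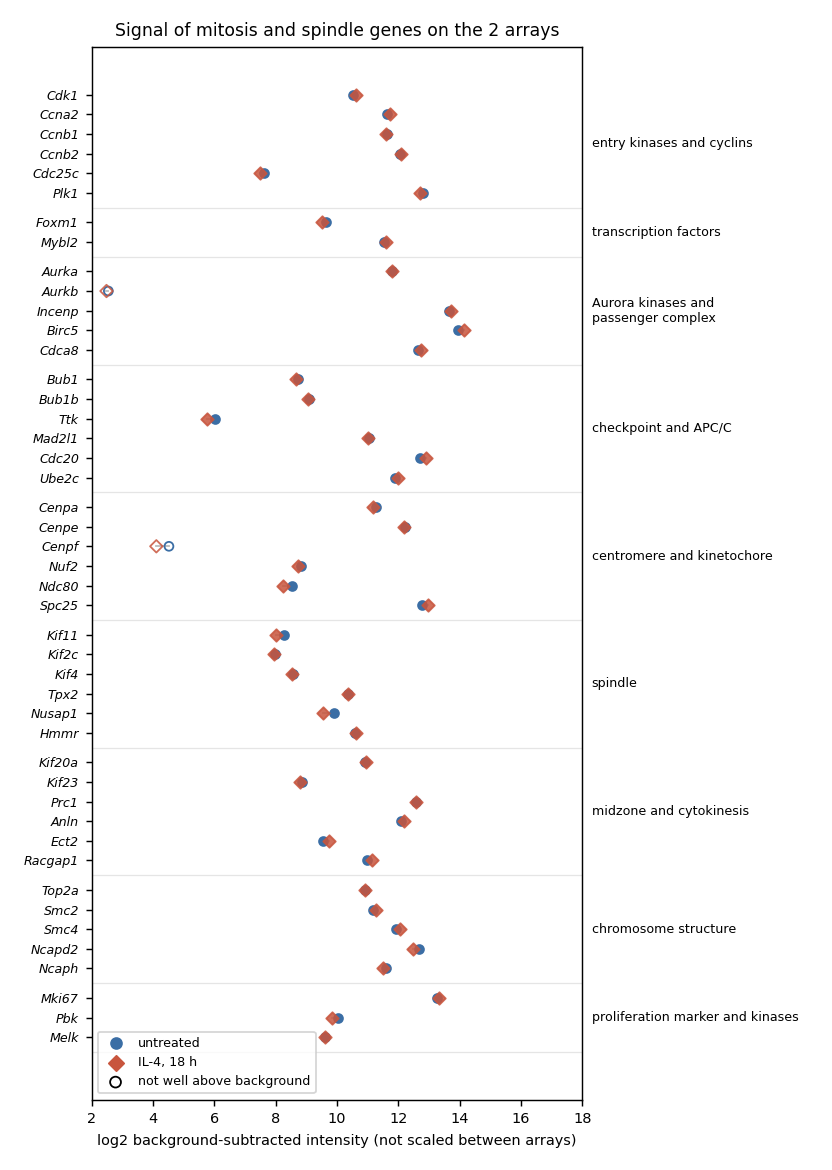
Background-subtracted intensity of each of the 45 genes, from its brightest probe, on the untreated array (circles) and the IL-4 array (diamonds), on a log2 axis and before any scaling between the arrays. Open symbols are signals not well above background. The paired symbols of most genes overlap, and Aurkb and Cenpf lie at the background on both arrays.

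The errors at hand do not come from replicate arrays. The spot SD, which is the SD of the log2 difference between spots of probes printed in 10 spots at like signal, was 0.046 to 0.209 for these genes, and it does not include the spread between cultures. By that measure 17 of the 43 genes lay more than 2 spot SDs below 0 (39.5%, against 28.4% of all genes on both arrays), 3 lay more than 2 above 0 (6.98%, against 25.8%) and 23 lay within 2. These counts are for 75th percentile scaling, as are the spot SD comparisons of single genes below, and they turn with the scaling: 3 lay below and 20 above with median scaling, and 1 below and 27 above with spike-in scaling. The scanner software's own error, which also allows for error between arrays, was 0.20 to 0.33 log2 units for a difference, and with the same scaling Nusap1 alone lay beyond 2 such errors. Bub1 was the only one of the 45 genes whose probe was printed in 10 spots, which read 391 to 470 in untreated BMDMs (median 427) and 383 to 427 after IL-4 (median 397). With 75th percentile scaling the spot for spot difference was below 0 in 10 of 10, with a mean of -0.19 and an SD of 0.057. The intensities on the 2 arrays still overlapped. That mean was 0.02 with median scaling and 0.10 with spike-in scaling, and the 10 spots read the same RNA of each condition.

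The kinases and cyclins that open mitosis come first. Cdk1, the kinase that drives entry into mitosis, read 1480 in untreated BMDMs and 1580 after IL-4, a log2 difference of 0.00. Ccna2, cyclin A2 of S phase and G2, read 3180 and 3410, also a difference of 0.00. Ccnb1, the cyclin B1 partner of Cdk1, read 3140 and 3070, with a difference of -0.13. Of these 3 genes, Ccnb1 alone lay more than 2 spot SDs from 0. Ccnb2, the cyclin B2 partner, read 4250 and 4390 (-0.05). Plk1, the polo-like kinase of centrosome maturation and spindle assembly, read 7170 and 6630, 1.16-fold lower after IL-4 (-0.21). Cdc25c, a phosphatase that activates Cdk1, was dim at 195 and 181 and differed by as much (-0.21). Plk1 and Cdc25c held the lowest differences of this role, whose median was -0.09.

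The transcription factors of the programme differed little. Foxm1 read 801 untreated and 728 after IL-4, 1.18-fold lower, and its 2 probes gave the same difference of -0.24. Mybl2, which encodes B-Myb, read 2970 and 3070 (-0.06). The difference of Foxm1 was more than 2 spot SDs below 0 and that of Mybl2 was not.

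The Aurora kinases and the chromosomal passenger complex, which corrects faulty attachments of chromosomes to the spindle and guides cytokinesis, held both the brightest gene and one of the 2 unmeasured ones. Birc5, the passenger subunit survivin, read 15700 and 17900, 1.07-fold higher after IL-4 (0.10), and its other 2 probes also lay above 0, at 0.01 and 0.24. Incenp, the scaffold of the complex, read 12900 and 13400 (-0.04). Cdca8, the subunit borealin, read 6380 and 6790 (-0.01). The second probe of Cdca8 gave -0.11. Aurka, the kinase of the spindle poles, read 3540 and 3530 (-0.10). Aurkb, the kinase of the passenger complex itself, had a single probe that failed the background flag on both arrays, at 5.85 and 5.61, and no difference is given for it.

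The spindle checkpoint, which holds anaphase back until every chromosome is attached, had values on both sides of 0. Ttk, the kinase Mps1 at the head of the checkpoint, was the dimmest measured gene of the set, at 65.0 untreated and 53.9 after IL-4. Its difference of -0.37 was within 2 spot SDs, since the spot SD at that signal was 0.209. Bub1b, the checkpoint component BubR1, read 541 and 531 (-0.13). Both Ttk and Bub1b thus stayed within 2 spot SDs of 0. Mad2l1, the Mad2 protein that binds Cdc20, read 2100 and 2050 (-0.13), and its other 2 probes gave -0.19 and 0.01. Cdc20, the activator of the anaphase-promoting complex that the checkpoint restrains, read 6630 and 7710, the highest difference of all 43 genes at 0.12, or 1.09-fold. Ube2c, the ubiquitin-conjugating enzyme of that complex, read 3790 and 4080 (0.01), and its dimmer probe 2830 and 3460 (0.19).

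**Figure D2:**
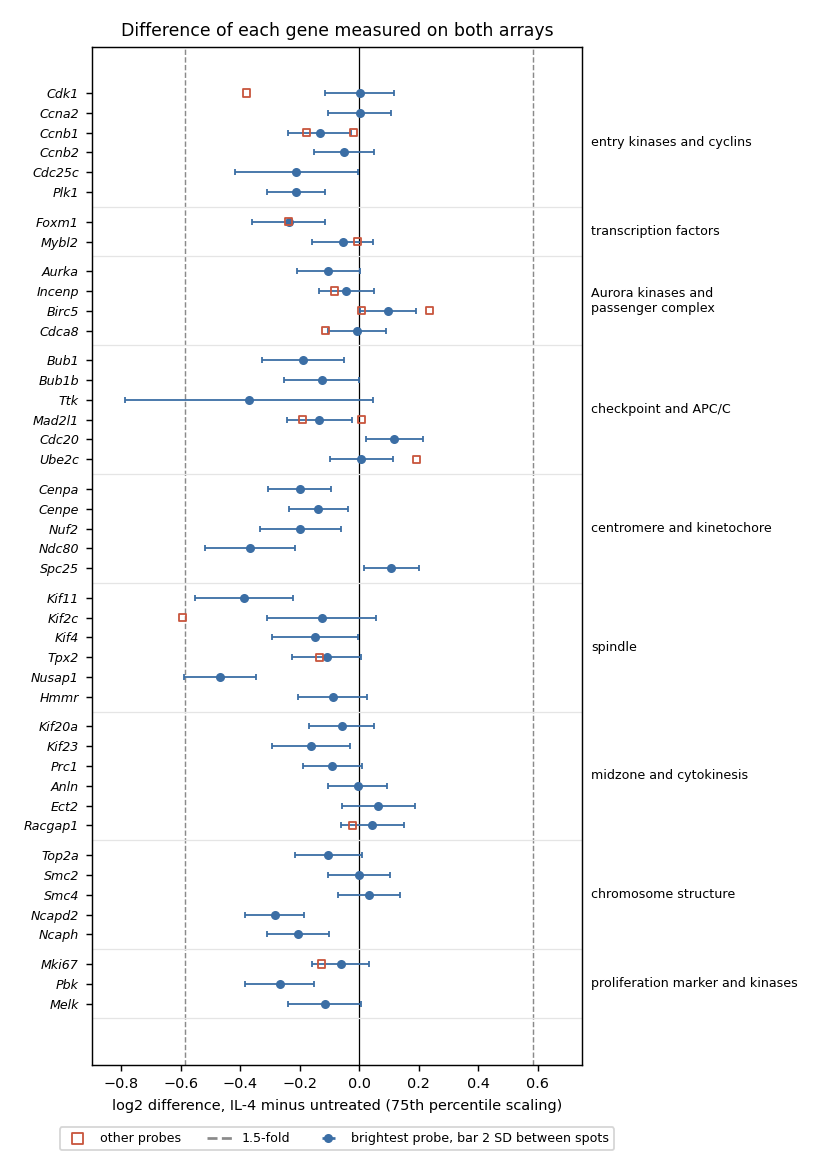
Log2 difference, IL-4 minus untreated with 75th percentile scaling, of the 43 genes that passed the background flag on both arrays. Filled circles are the brightest probe with bars of 2 spot SDs, open squares are the other probes of the same gene, and dashed lines mark 1.5-fold. All 43 circles lie inside the dashed lines and 34 lie below 0, a count that is 7 with median scaling and 4 with spike-in scaling.

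At the centromere and kinetochore, the platform that joins chromosomes to microtubules, 4 of 5 measured genes lay below 0 with 75th percentile scaling and 1 with spike-in scaling. Ndc80, the microtubule-binding subunit that names the Ndc80 complex, read 369 untreated and 306 after IL-4, 1.29-fold lower (-0.37). Nuf2, its partner in the complex, read 452 and 423 (-0.20). Spc25, a subunit at the other end of the same complex, read 7010 and 8090 (0.11). Subunits of 1 complex thus lay on both sides of 0, each more than 2 spot SDs away. Cenpa, the histone H3 variant that marks centromeres, read 2500 and 2330 (-0.20). Cenpe, a kinesin of the kinetochore, read 4790 and 4660 (-0.14). Cenpf, a large kinetochore protein, read 23.0 and 17.3 and also failed the flag on both arrays.

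All 6 of 6 spindle genes lay below 0 with 75th percentile scaling, 2 of 6 did with median or spike-in scaling, and these 2 did in all 14 ways of processing the data. Nusap1, which bundles spindle microtubules near chromosomes, had the largest difference of the 43 genes with 75th percentile scaling, while Cdc20 had with median or spike-in scaling. It read 966 untreated and 748 after IL-4, 1.38-fold lower (-0.47). Kif11, the kinesin that pushes the spindle poles apart, read 313 and 256, 1.31-fold lower (-0.39). These values ran from -0.52 to -0.18 for Nusap1 and from -0.44 to -0.10 for Kif11 over the ways of processing. Kif2c, a kinesin that depolymerises microtubule ends, read 254 and 249 with its brighter probe (-0.13) but 224 and 159 with its dimmer one (-0.60), the single probe among those of the 45 genes, and well above background, to pass 1.5-fold. Kif4, a kinesin carried on chromosomes, read 382 and 369 (-0.15). Tpx2, which activates Aurora A and seeds microtubules, read 1320 and 1310 (-0.11), with -0.13 from its other probe. Hmmr, a spindle-associated hyaluronan receptor, read 1550 and 1560 (-0.09). By their brightest probes only Nusap1, Kif11 and Kif4 of these 6 lay more than 2 spot SDs below 0. The dimmer Kif2c probe, with a spot SD of 0.103, also did.

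The genes of the midzone and of cytokinesis had a median of -0.03 with 75th percentile scaling and of 0.18 with median scaling. Ect2, which activates the small GTPase RhoA at the cleavage site, read 755 and 846 (0.06). Racgap1, which recruits Ect2, read 2040 and 2250 (0.04), and its second probe gave -0.02. Kif23, the kinesin that forms centralspindlin with Racgap1, read 467 and 447 (-0.16), the lowest value of this role and its only one beyond 2 spot SDs. The kinesin gene Kif20a, whose product carries the passenger complex to the midzone, read 1930 and 1990 (-0.06). Prc1, which crosslinks midzone microtubules, read 6140 and 6170 (-0.09). Anln, the ring scaffold anillin, read 4330 and 4630 (0.00). Of 6 genes, 4 lay below 0 with 75th percentile scaling, and 0 did with median or spike-in scaling.

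Among genes of chromosome structure the condensin core and its regulatory subunits gave different values. Smc2, one of the paired ATPases of condensin, read 2310 and 2470 (0.00). Smc4, the other, read 3900 and 4280 (0.03). Ncapd2, a regulatory subunit of condensin I, read 6470 untreated and 5690 after IL-4, 1.22-fold lower (-0.28). Ncaph, the subunit that links the ATPases, read 3120 and 2900 (-0.21). Ncapd2 and Ncaph lay more than 2 spot SDs below 0 while Smc2 and Smc4 lay within 2. Top2a, the topoisomerase that untangles sister chromatids, read 1920 and 1910 (-0.10).

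The proliferation marker Mki67, which coats mitotic chromosomes, read 9920 in untreated BMDMs and 10200 after IL-4. Its difference was -0.06, and -0.13 from its second probe. Melk, a kinase of cycling cells, read 782 and 773 (-0.12). By their brightest probes Mki67 and Melk were within 2 spot SDs of 0. The second Mki67 probe (7960 and 7810), with a spot SD of 0.049, lay more than 2 below 0. Pbk, another kinase expressed in mitosis, read 1040 and 924, 1.20-fold lower (-0.27).

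Dim genes on these arrays had lower differences than bright ones, so each mitosis gene was also set against the median of all genes within 0.5 log2 units of its signal. That median went from -0.19 at a mean log2 intensity of 5 to 0.07 at 14. Relative to it, 38 of the 43 mitosis genes lay below and 5 above (88.4% below, where such a median splits all genes evenly), with a median of -0.11 and a range of -0.44 to 0.09. The 5 above were Birc5, Cdc20, Spc25, Ect2 and Racgap1. Within 0.25 log2 units of that median lay 37 of them, or 86.0%, against 66.1% of all genes on both arrays. The dimmer 21 mitosis genes had a median difference of -0.15 with 19 below 0, and the brighter 21 had -0.05 with 15 below 0. The comparison with genes of like signal is within each signal range, so a constant shift of either array leaves it as it is. Such a shift does change the medians and the counts below 0 of the dimmer and brighter genes.

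**Figure D3:**
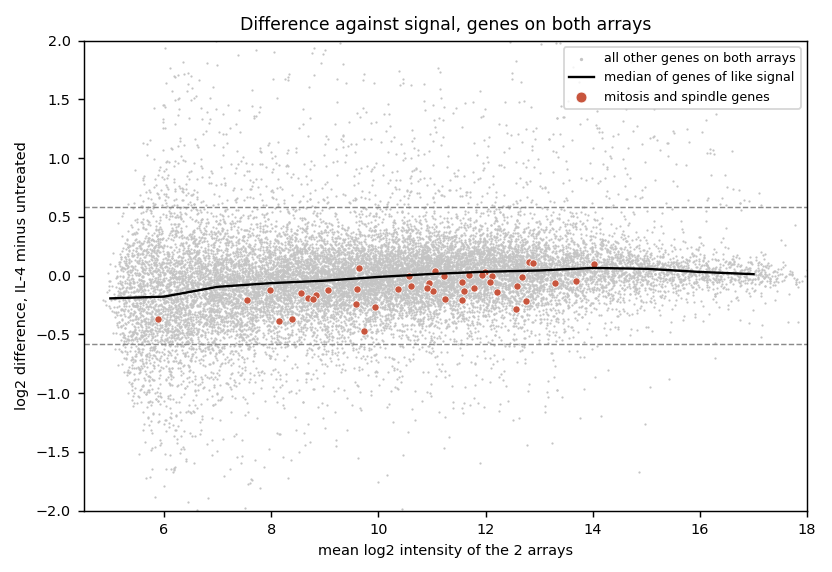
Log2 difference, IL-4 minus untreated with 75th percentile scaling, against the mean log2 intensity of the 2 arrays for genes well above background on both. Grey points are all other genes (81 lie beyond 2 log2 units and are not drawn), the line is the median of genes of like signal, and dashed lines mark 1.5-fold. The 43 mitosis genes (red) lie between the dashed lines, 38 of them below the line for their signal.

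Of 13 mitosis genes with several probes well above background on both arrays, 3 had probes on opposite sides of 0. For Cdk1 the brightest probe gave 0.00, and a dim probe at 36.9 and 30.4 gave -0.38 with a spot SD of 0.295. For Mad2l1 the range was -0.19 to 0.01, and for Racgap1 -0.02 to 0.04. The widest gap between probes of a gene was 0.47, in Kif2c.

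Other genes of mitosis, on a list of 60 that shares no gene with the 45, had a like median but a wider range. Of the 58 well above background on both arrays, 42 lay below 0 with 75th percentile scaling (72.4%, against 52.6% of all genes). They ran from -1.24 to 0.88 with a median of -0.10, which was 0.12 with median scaling. Of the 59 with a fold, 2 were higher and 2 lower by 1.5-fold or more, a size that 17.1% of all genes reached. By 2-fold or more 1 gene of the 59 differed, against 7.34% of all genes. That gene was Ncapg2, a subunit of condensin II, which read 1840 untreated and 835 after IL-4, 2.37-fold lower (-1.24). Cit, the citron kinase of cytokinesis, read 168 and 107 (-0.75). Sgo2a, a protector of centromeric cohesion, read 115 and 225, 1.84-fold higher (0.88). Ncapg2 and Cit stayed below 0 and Sgo2a above 0 in every way of processing that was run. Ska2, of the kinetochore's Ska complex and named after its values were seen, was well above background after IL-4 only, at 22.0 and 49.0. With 75th percentile scaling it was at least 1.56-fold higher, but its difference was only 0.03 log2 units with normexp, and its spot SD was 0.295. Next among the genes measured on both arrays was Cep55, the abscission factor, at 0.17 (134 and 162). In the DNA replication and S phase list 29 of 39 measured genes lay below 0 with this scaling and the median was -0.09, which was 0.13 with median scaling. Among its outer values were E2f2, an activating E2F (1710 and 992, -0.88), Tyms of thymidylate synthesis (82.3 and 121, 0.46) and the ribonucleotide reductase gene Rrm2 (8110 and 10300, 0.25).

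**Figure D4:**
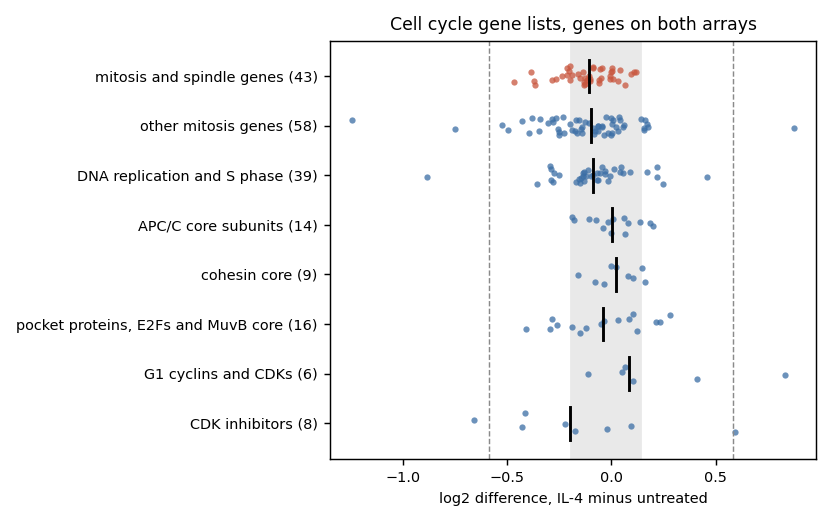
Log2 difference, IL-4 minus untreated with 75th percentile scaling, of each gene well above background on both arrays in the mitosis and spindle set and in 7 other cell cycle lists, with the number of genes in parentheses. Black bars are list medians, the grey band holds the middle 50% of all genes (-0.19 to 0.14) and dashed lines mark 1.5-fold. The medians of 7 of the 8 lists lie inside the band and that of the CDK inhibitors, at -0.20, just outside it, and the mitosis and spindle genes (red) have no point beyond the dashed lines.

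The brakes and the starters of the cycle, which act before mitosis, included larger values than the mitosis genes did. Cdkn1a, the inhibitor p21, read 3610 untreated and 5830 after IL-4, 1.51-fold higher (0.59), and its dimmer probe gave 0.37. Cdkn1c, the inhibitor p57, read 787 and 534, 1.58-fold lower (-0.66). Cdkn2b, the inhibitor p15, read 2120 and 1690 (-0.43), and Cdkn1b, the inhibitor p27, read 2800 and 2250 (-0.41). The inhibitors thus did not share a direction, and Cdkn1a lay above 0 and Cdkn1c below 0 in every way of processing that was run. The remaining inhibitors were Cdkn2c at -0.22, Cdkn3 at -0.17, Cdkn2a at -0.02 and Cdkn2d at 0.09. Among G1 genes, Myc, a driver of cell growth, read 1110 and 2120, 1.78-fold higher (0.83), and Ccnd1, cyclin D1, read 10700 and 15200, 1.33-fold higher (0.41).

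The treatment showed on the array, and the cells carried macrophage transcripts. All 7 of 7 IL-4 response genes were more than 2-fold higher after IL-4, led by Arg1, an arginine-degrading enzyme, at 84.9 and 19700, and by Retnla at 6.99 and 18600, at least 595-fold higher. All 9 macrophage marker genes found on the array were well above background on both arrays (summed intensity 298000 untreated and 275000 after IL-4). Of these 9, 6 lay below 0 with 75th percentile, median or spike-in scaling. With 75th percentile scaling Cd14, Fcgr1 and Mertk were more than 2-fold lower after IL-4. The other 3 of the 9 lay above 0, with Spi1 (0.23) and Adgre1 (0.17) the highest. Stromal and endothelial markers were also well above background, 6 of 6 on both arrays, with sums of 298000 and 290000 that were mostly the collagen genes Col1a2 (233000 and 234000) and Col1a1 (58200 and 49100), and neutrophil markers 6 of 6 with 38500 and 36600. Of 8 progenitor and granulocyte precursor markers, 6 were well above background untreated and 7 after IL-4 (sums 4230 and 6520, mostly Cd34 at 2980 and 5130). Of the 6 measured on both arrays, 3 lay below 0 and 3 above with 75th percentile scaling, and 2 lay below with median scaling. Of 8 lymphocyte markers, 3 were well above background untreated and 2 after IL-4 (982 and 893). Of 6 erythroid markers, 2 were on each array (1230 and 2590, mostly Tfrc, the transferrin receptor that dividing cells also carry). The part of these other cells in the mitosis values was not tested.

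Where the mitosis genes lay relative to 0 changed with the processing. Against the median of all genes, which was 0.20 with median scaling and 0.27 with spike-in scaling, 28 to 38 of the 43 mitosis genes lay below in each of the 14 ways of processing, and their median lay 0.06 to 0.11 log2 units below it. Ttk, Ndc80, Kif11 and Nusap1 were the 4 genes below 0 in all 14 ways of processing, and the share of all genes that were so is not given here. Ttk, near the background, lay at -0.09 with spike-in scaling, within its spot SD of 0.209.

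**Figure D5:**
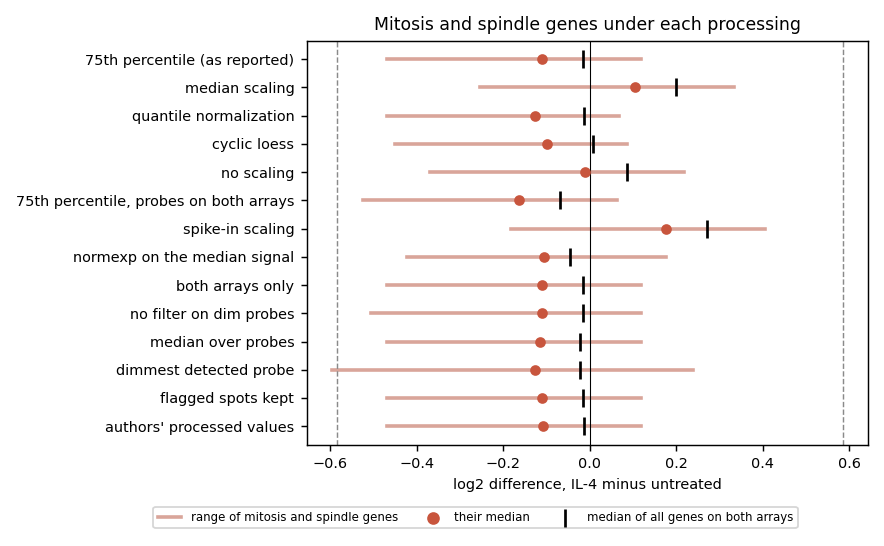
Log2 difference, IL-4 minus untreated, of the mitosis and spindle genes under each way of processing the data: bars are the range over the genes, red points their median, black marks the same for all measured genes, and dashed lines mark 1.5-fold. The red point lies left of the black mark in every row, on either side of 0 by scaling, and only with the dimmest detected probe does the range pass a dashed line (-0.60, Kif2c). Rows that differ only by a constant shift have the same gap between point and mark by construction.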

How the data were processed

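RNA of untreated and IL-4-treated BMDMs was compared on 1 Agilent array each, both on 1 slide and in the same scan, with conditions taken from the labels. The authors deposited Feature Extraction 10.10.1.1 output, in which the intensity of a spot is background-subtracted but unscaled across arrays, together with processed log2 values whose scaling is not stated. The differences in that deposited log2 table matched those of the scanner intensity, once scaled on the 75th percentile, within 0.01 for 39422 of 39424 probes. An offset of 0.0006 was taken off before this count. With the deposited values 33 of the 43 mitosis genes lay below 0, in place of 34. The medians of the deposited columns were 0.16 and 0.02.

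Outlier and control spots were left out, log2 intensity was averaged over the spots of a probe, and each array's 75th percentile was taken off. A gene was read from its brightest probe, with a lower bound where only 1 array passed the background flag. The array was annotated on mm9, and genes were named through RefSeq accessions (27229 of 39424 probes matched, to 20656 symbols). The promoters are RefSeq's GRCm38.p6 windows. On the untreated array 59.8% of spots were well above background, and 57.4% with IL-4. Precision is limited by the number of arrays.

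The mitosis genes and all other lists were chosen with earlier results of these data known. All 45 genes were eligible to be named. From other lists the 2 highest and 2 lowest genes, all CDK inhibitors, all IL-4 response genes and genes at least 2-fold different were, and a further choice among these was made after their values were seen. A withheld item is not reported here. The script that counts genes was tested on simulated data with known changes. Alternatives were the authors' processed values, outlier spots left in, median, quantile, cyclic loess, spike-in or no scaling, a 75th percentile from flag-passing probes alone, normexp (offset 50) on the median signal, since no mean signal was used here, 2 filters on dim probes and 2 other choices of probe for a gene. Setting the genes against all genes, or against genes of like signal, was chosen after seeing the data. Software was limma 3.58.1 in R 4.3.3, and pandas 2.3.3 with numpy 2.4.6 in Python 3.11.15.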

Additional observations from a re-analysis of the deposited data

How the results depend on the processing

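Under 13 alternative settings, 12 left 0 of the mitosis genes at 1.5-fold or more, and the dimmest detected probe gave 1, Kif2c. With median scaling the count below 0 was 7 in place of 34 and the median 0.10 in place of -0.11. With spike-in scaling, on 7 bright control probes, the count was 4 and the median 0.18, and with no scaling the median was -0.010. These shifts follow from the constants the scalings subtract. In the 7 other cell cycle lists 8 genes passed 1.5-fold, and 5 did with normexp. These lists held 59, 39, 16, 14, 9, 8 and 7 genes with a fold. Of all genes with a fold, 17.1% passed 1.5-fold. For single mitosis genes, 368 values moved by less than the spot SD and 191 by more. No paired analysis was possible because there was 1 array for either condition. Signals such as that of Ttk, near the background, carry the largest spot error, and Aurkb and Cenpf could not be compared at this signal.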

Other observations

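3 further lists from the same machinery were measured. The first held core subunits of the anaphase-promoting complex, the ubiquitin ligase that ends mitosis, together with its activator Fzr1 and its enzyme Ube2s. It had 7 of 14 measured genes below 0 with 75th percentile scaling and a median of 0.00, and 0 of 14 and a median of 0.22 with median scaling. With 75th percentile scaling and brightest probes, its values ran from -0.19 for Fzr1 to 0.20 for the subunit Cdc26 (1420 and 1740). Fzr1, which acts in late mitosis and G1, read 3910 untreated and 3680 after IL-4, and 1950 and 2080 with its dimmer probe (-0.004). A dimmer probe of the subunit Cdc27, named after its values were seen, read 419 and 324 (-0.47). The list of cohesin, the ring that holds sister chromatids together, and of its regulators had 4 of 9 below 0 and a median of 0.02 with that scaling, and 0 of 9 and a median of 0.24 with median scaling. With 75th percentile scaling its values ran from -0.16 for Stag2 (4230 and 4060) to 0.16 for Smc3 (4630 and 5540).

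The pocket proteins, E2Fs and MuvB core had 9 of 16 genes below 0 with 75th percentile scaling and a median of -0.04, and 4 of 16 and a median of 0.17 with median scaling. The lowest was Lin54, the MuvB subunit that binds the CHR element, which read 795 and 640, 1.33-fold lower (-0.41). Rb1, the retinoblastoma protein, read 1370 and 1200 (-0.29). The highest were E2f4, an E2F of the repressing complex (125 and 162, 0.28), and Tfdp1, the common partner of E2Fs (1120 and 1420, 0.23). By its brightest probe none of the 16 genes reached 1.5-fold. The pocket protein gene Rbl1, named after its values were seen, passed it with a dimmer probe (121 and 84.8, -0.61). Each value comes from 1 array per condition.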
